A study of Arabidopsis thaliana with 17 samples.

Results

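Glutathione S-transferases were described here as the 13 genes whose annotated symbol begins with GST, out of 13356 genes that have a probe set of their own in the array annotation used. Where a gene has several probe sets the one with the highest mean signal was to stand for it, but each of the 13 has 1. The genes are 11 of the tau class (GSTU15, GSTU16, GSTU18, GSTU20, GSTU21, GSTU22, GSTU23, GSTU25, GSTU26, GSTU27 and GSTU28), 1 of the phi class (GSTF4) and 1 of the lambda class (GSTL3). The RefSeq gene table lists 47 Arabidopsis genes with GSTU, GSTF, GSTL, GSTT or GSTZ symbols, so the 13 cover part of the family.

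The transcript levels came from 17 ATH1 arrays of Arabidopsis thaliana, hybridized with rosette leaf RNA of plants aged 4 weeks, each array holding RNA from 1 pool of 10 plants. The wild types were the accessions Col-0 (3 arrays) and Wassilewskija (2 arrays). The single mutants were stn7-1 (3 arrays), psad1-1 (2) and psae1-3 (2), and the double mutants were psad1-1 stn7-1 (3) and psae1-3 stn7-1 (2), all grown with no further treatment named in the labels. STN7 is the thylakoid kinase that phosphorylates the light-harvesting complex of photosystem II and acts in the slow acclimation of the photosystems to the colour of light. PSAD and PSAE are subunits on the stromal side of photosystem I, where ferredoxin binds. The study thus asked how leaf transcripts change when a photosystem I subunit gene, the kinase or both are mutated. The labels do not give the accession in which each mutant was made, and each mutant stands for 1 allele.

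Glutathione S-transferases bind the tripeptide glutathione and, in the tau and phi classes, which are abundant in plants, join it to reactive or foreign compounds such as herbicides, whose conjugates are then moved into the vacuole. Lambda class enzymes carry a cysteine in the active site and act in glutathione-dependent reduction rather than conjugation. Many tau genes lie in tandem clusters and are known for their induction by stress, hormones and chemicals. GSTU20 is known in Arabidopsis as a partner of the jasmonate-conjugating enzyme JAR1 in far-red light signalling, and has been placed in the synthesis of glucosinolates, the sulphur-rich defence compounds of the cabbage family, in which glutathione is the sulphur donor.

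By their deposited signal scale there were 2 array sets, with Col-0, stn7-1, psad1-1 and psad1-1 stn7-1 in the first (11 arrays) and Wassilewskija, psae1-3 and psae1-3 stn7-1 in the second (6 arrays). Each array was brought to the same trimmed mean, and changes were taken only between genotypes of the same set, apart from the comparison of the wild types. PSAE-1, the gene mutated in psae1-3, read 5009 ± 136 in Wassilewskija (SD, n = 2), 43.5 ± 27.9 in psae1-3 and 7.81 ± 3.62 in psae1-3 stn7-1. The 8 mesophyll marker genes matched were above the background signal of 8.15 on 17 of 17 arrays (RCA, rubisco activase, at 3559 to 6703), and the flower marker AMS was above it on 2 of 17. In these bulk leaf samples fewer cells of a type and less RNA per cell cannot be told apart. The labels do not say whether the pools of a genotype were grown separately, so p-values measure the spread between these pools.

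Of the 13 genes 7 passed the filter on low signals and were tested, GSTU20, GSTL3, GSTU18, GSTU27, GSTU16, GSTU26 and GSTF4, and each was above the background on 17 of 17 arrays. The other 6 were too dim. Those tested passed a threshold of 4.22 on the mean log2 signal. GSTF4 lay just inside it at 4.57 and GSTU23 just outside at 4.15. On the chromosomes 11 of the 13 lie on chromosome 1, GSTU27 on chromosome 3 and GSTL3 on chromosome 5. GSTU23, GSTU22, GSTU21 and GSTU20 follow one another there with 0 protein-coding genes between neighbours, as do GSTU25 and GSTU26, and 3 protein-coding genes separate GSTU15 from GSTU16. So the tested genes include 1 member of each of these 3 clusters, and the partners of GSTU20, GSTU26 and GSTU16 named here fell below the filter. Family genes outside the 13 were not placed in these clusters and were not measured here. A signal depends on the probe set as well as on the transcript, so levels below are compared between genotypes and not between genes.

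GSTU20 (AT1G78370) was lower in the lines that carry psad1-1 and in psae1-3 stn7-1, by more than any other tested member in each. Its scaled signals in Col-0 were 1755, 2040 and 1651, with a mean of 1815 ± 201 (SD, n = 3). In psad1-1 the 2 arrays read 868 and 637 (752 ± 163), and in psad1-1 stn7-1 the 3 arrays read 1107, 719 and 854 (893 ± 197). All 5 of these arrays lay below every Col-0 array. In stn7-1 the signals were 1523, 1522 and 1678 (1575 ± 89.8), overlapping Col-0. In the second array set Wassilewskija read 1991 and 2340 (2166 ± 247, n = 2), psae1-3 1606 and 1422 (1514 ± 130) and psae1-3 stn7-1 748 and 853 (801 ± 74.2). Here the 3 genotypes did not overlap, with the double mutant lowest.

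Over the whole study the 10 arrays of Col-0, stn7-1, Wassilewskija and psae1-3 lay between 1422 and 2340 and the 7 arrays of psad1-1, psad1-1 stn7-1 and psae1-3 stn7-1 between 637 and 1107. The genotype means fell in the order Wassilewskija, Col-0, stn7-1, psae1-3, psad1-1 stn7-1, psae1-3 stn7-1 and psad1-1. Neighbours in that order overlapped in their array values, except that psae1-3 and psad1-1 stn7-1 were separated by the gap. Levels of different sets stand side by side here only after scaling, since no genotype was measured in both.

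**Figure D1:**
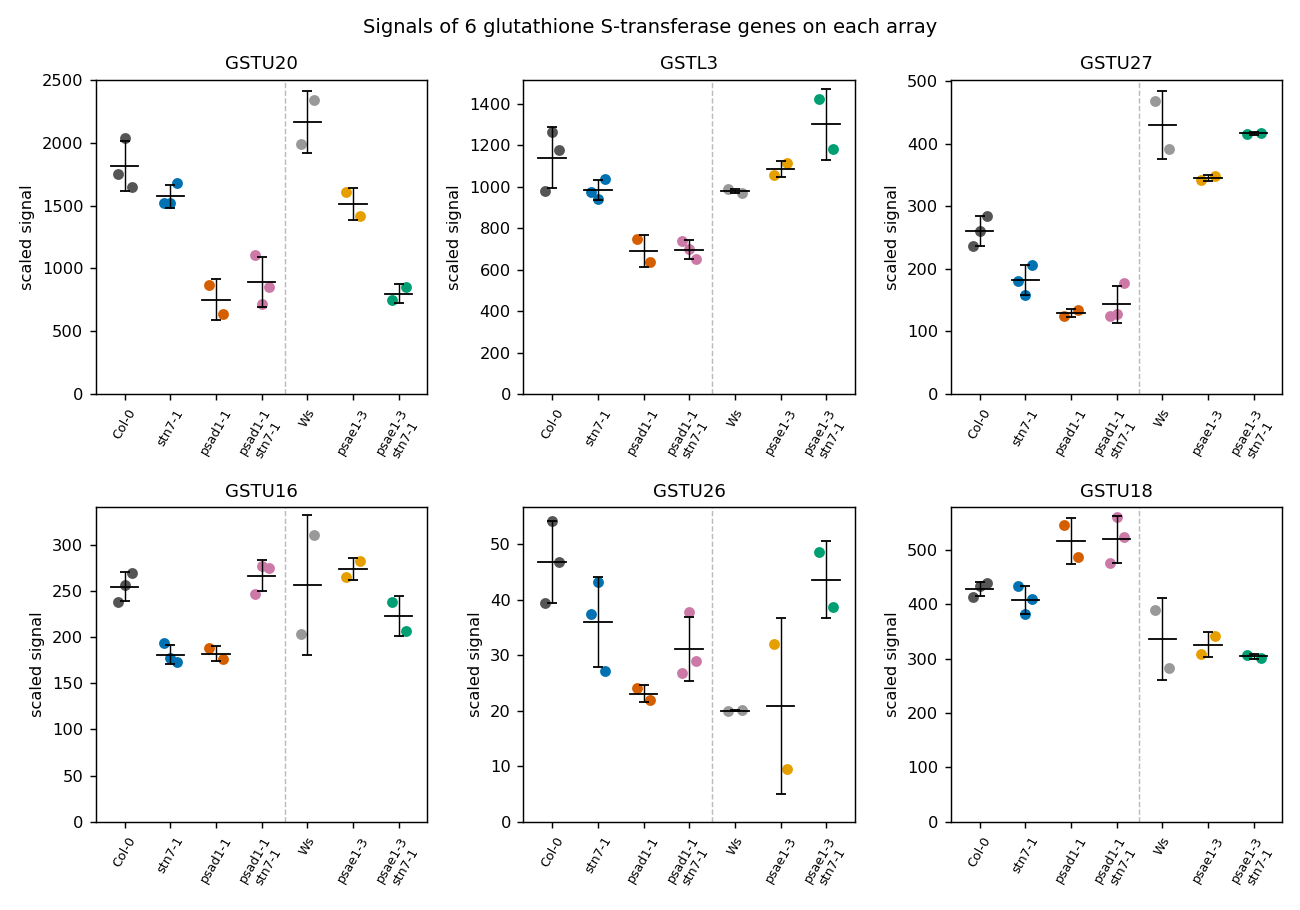
Scaled signals (linear axis from 0, trimmed mean of each array set to 100) of 6 of the 7 tested genes (GSTF4 is left out) in 7 genotypes. Points are arrays, horizontal lines genotype means and bars 1 SD, and the dashed line separates the 2 array sets (Ws is Wassilewskija). GSTU20 lay between 637 and 1107 in the 7 arrays of psad1-1, psad1-1 stn7-1 and psae1-3 stn7-1 and between 1422 and 2340 in the other 10.

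In the linear model fitted with limma to all 13648 tested probe sets, the psad1-1 change of GSTU20 against Col-0 was −1.28 log2 (SE 0.166, adjusted p = 1.71e-05), which leaves 41.1% of the Col-0 level. In psad1-1 stn7-1 it changed by −1.04 log2 (SE 0.148, adjusted p = 3.94e-05), to 48.6% of Col-0. Among all tested probe sets 5.11% changed by as much downward or more in psad1-1 and 7.03% in psad1-1 stn7-1. In psae1-3 stn7-1 against Wassilewskija the change was −1.43 log2 (SE 0.182, adjusted p = 5.12e-05), to 37.0%, a change matched or exceeded downward by 1.08% of the tested probe sets. These 3 calls held under every alternative setting and every left-out array that was run. In the single mutants stn7-1 and psae1-3 GSTU20 did not pass. It stood at −0.20 log2 in stn7-1 (95% confidence interval −0.52 to 0.11, adjusted p = 0.379) and at −0.51 log2 in psae1-3 (−0.90 to −0.13, adjusted p = 0.0748). The psae1-3 value passed when the second array set was fitted alone (adjusted p = 0.0433).

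GSTU20 was lower in psae1-3 stn7-1 than in psae1-3 (−0.92 log2, SE 0.182, adjusted p = 0.00298), at 52.9% of the single mutant. Between psad1-1 stn7-1 and psad1-1 there was no call (0.24 log2, 95% confidence interval −0.11 to 0.59, adjusted p = 0.505). Against stn7-1 the double mutant psad1-1 stn7-1 was lower (−0.84 log2, SE 0.148, adjusted p = 0.00048). The change with stn7-1 in psae1-3 differed from that in the wild type by −0.72 log2 (SE 0.235, adjusted p = 0.037). This call was lost under 3 of 11 alternative settings and in 7 of 10 fits with 1 array left out, with adjusted p from 0.0113 to 0.195. The value was −0.43 log2 after quantile normalization, and it sets changes in one array set against changes in the other.

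GSTU27 (AT3G43800), a tau member on a chromosome of its own, was lower in all 3 mutants of the first array set. It read 237, 261 and 285 in Col-0 (261 ± 24.1), 181, 159 and 206 in stn7-1 (182 ± 23.5), 125 and 134 in psad1-1 (129 ± 5.83) and 125, 128 and 178 in psad1-1 stn7-1 (144 ± 29.6). Every mutant array lay below every Col-0 array. The changes were −0.53 log2 in stn7-1 (SE 0.138, adjusted p = 0.0152), −1.01 log2 in psad1-1 (SE 0.155, adjusted p = 8.89e-05) and −0.88 log2 in psad1-1 stn7-1 (SE 0.138, adjusted p = 0.0001). The stn7-1 call was lost with scaling to the array median (adjusted p = 0.0659), without Col-0 replicate C (0.0647) and without stn7-1 replicate B (0.0775), and the other 2 held throughout. In the second set Wassilewskija read 468 and 391 (430 ± 54.1), psae1-3 342 and 349 (346 ± 4.96) and psae1-3 stn7-1 415 and 418 (417 ± 2.51). Neither mutant passed there, at −0.31 log2 (adjusted p = 0.251) and −0.04 log2 (adjusted p = 0.911).

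GSTU16 (AT1G59700) was lower in each first-set single mutant but not in their double mutant. Its signals were 238, 256 and 269 in Col-0 (254 ± 15.9), 193, 177 and 173 in stn7-1 (181 ± 10.7), 188 and 176 in psad1-1 (182 ± 8.32) and 247, 277 and 275 in psad1-1 stn7-1 (267 ± 16.7). The single mutants lay wholly below Col-0, and the double mutant overlapped it. The change was −0.49 log2 in stn7-1 (SE 0.132, adjusted p = 0.0171) and −0.48 log2 in psad1-1 (SE 0.148, adjusted p = 0.0156), against 0.07 log2 in psad1-1 stn7-1 (95% confidence interval −0.21 to 0.35, adjusted p = 0.731). The interaction, the change in the double mutant beyond the sum of the single changes, was 1.04 log2 (SE 0.199, 95% confidence interval 0.62 to 1.46, adjusted p = 0.00513). It passed in every fit that was run, with adjusted p from 0.00366 to 0.0376.

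The single-mutant calls of GSTU16 were less firm. In stn7-1 the adjusted p was 0.0636 without Col-0 replicate C, 0.057 without stn7-1 replicate B and 0.0546 without Col-0 replicate B. In psad1-1 it had 0.0754 with scaling to the array median, 0.051 without Col-0 replicate C and 0.104 without psad1-1 replicate B. Against stn7-1 the double mutant was higher by 0.56 log2 (SE 0.132, adjusted p = 0.00462), and against psad1-1 it stood at 0.55 log2 (SE 0.148, adjusted p = 0.0681) with all of its arrays above both psad1-1 arrays. In the second set the signals were 203 and 310 in Wassilewskija (256 ± 75.9), 265 and 282 in psae1-3 (274 ± 12.4) and 238 and 207 in psae1-3 stn7-1 (223 ± 22.2), and neither mutant passed (0.13 log2, adjusted p = 0.652, and −0.18 log2, adjusted p = 0.518).

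GSTU26 (AT1G17190) was low on all arrays, and its arrays spread more than those of the other tested members, with a pooled SD of 0.453 log2 between arrays of a genotype. It read 39.3, 54.1 and 46.8 in Col-0 (46.7 ± 7.4) and 24.1 and 22.0 in psad1-1 (23.0 ± 1.51), a change of −1.01 log2 (SE 0.358, adjusted p = 0.0336). That call was lost with scaling to the array median (adjusted p = 0.0593), with no filter (0.0883), and when psad1-1 replicate A (0.0905) or B (0.151) or Col-0 replicate B (0.0897) or C (0.0691) was left out. In stn7-1 the signals were 37.4, 43.2 and 27.2 (36.0 ± 8.11) and in psad1-1 stn7-1 26.7, 37.7 and 28.9 (31.1 ± 5.8), and neither passed (adjusted p = 0.431 and 0.156). Both groups lay lower in the mean than Col-0, with the stn7-1 arrays overlapping it.

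In the second set GSTU26 read 19.9 and 20.1 in Wassilewskija, 32.0 and 9.56 in psae1-3, and 48.5 and 38.7 in psae1-3 stn7-1. The double mutant thus lay in or beside the Col-0 range rather than at the Wassilewskija level. Col-0 was measured in the other array set, so these levels stand side by side only after scaling. The part that parental accession plays in this was not tested, since the labels do not give it. The change of GSTU26 in the double mutant was 1.12 log2 against Wassilewskija (SE 0.393, adjusted p = 0.064) and 1.31 log2 against psae1-3 (SE 0.393, adjusted p = 0.0388). The latter rests on psae1-3 replicate B, without which it was 0.44 log2. It was also lost without psae1-3 stn7-1 replicate A or B. Of 11 alternative settings it was lost under 4, with adjusted p = 0.119 when the second array set was fitted alone. After quantile normalization the adjusted p was 0.0883.

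GSTU18 (AT1G10360) stood higher where psad1-1 was present, without a call against Col-0. Its signals were 413, 433 and 438 in Col-0 (428 ± 13.3), 433, 381 and 409 in stn7-1 (407 ± 26.0), 546 and 486 in psad1-1 (516 ± 42.0) and 475, 561 and 523 in psad1-1 stn7-1 (520 ± 42.8). All 5 arrays with psad1-1 lay above the 6 without it. The change was 0.27 log2 in psad1-1 (SE 0.129, adjusted p = 0.112) and 0.28 log2 in psad1-1 stn7-1 (adjusted p = 0.0666), and both passed with scaling to the array median (adjusted p = 0.0295 and 0.0286). Against stn7-1 the double mutant was higher by 0.35 log2 (SE 0.115, adjusted p = 0.0318), a call lost under 2 alternative settings and 4 left-out arrays (adjusted p up to 0.127). In the second set the signals were 389 and 283 in Wassilewskija (336 ± 74.7), 309 and 342 in psae1-3 (326 ± 23.5) and 307 and 301 in psae1-3 stn7-1 (304 ± 4.81), all within the range of the wild type.

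GSTL3 (AT5G02790), the lambda class member, differed between the photosystem I mutants. Its signals were 980, 1265 and 1176 in Col-0 (1140 ± 146), 975, 939 and 1035 in stn7-1 (983 ± 48.5), 746 and 637 in psad1-1 (692 ± 77.3) and 739, 701 and 649 in psad1-1 stn7-1 (696 ± 44.7). The 5 arrays with psad1-1 lay below the other 6. In psad1-1 GSTL3 was lower than in Col-0 (−0.72 log2, SE 0.121, adjusted p = 0.000212). The change was −0.71 log2 in psad1-1 stn7-1 (SE 0.109, adjusted p = 8.01e-05) and −0.21 log2 in stn7-1 (adjusted p = 0.199). Both calls held in every fit that was run.

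In the second set GSTL3 read 987 and 971 in Wassilewskija (979 ± 11.7), 1057 and 1114 in psae1-3 (1085 ± 40.3) and 1423 and 1180 in psae1-3 stn7-1 (1302 ± 172), so that both mutants lay above their wild type. In psae1-3 stn7-1 it was higher by 0.41 log2 (SE 0.133, adjusted p = 0.0483). This call was lost under 5 of 12 alternative settings and in 3 of 4 fits without 1 array, with adjusted p = 0.129 without Wassilewskija replicate A, 0.173 without Wassilewskija replicate B and 0.328 without psae1-3 stn7-1 replicate A. In psae1-3 it stood at 0.15 log2 (adjusted p = 0.496). The psad1-1 change differed from the psae1-3 change by −0.87 log2 (SE 0.18, adjusted p = 0.00326), and this difference passed in every fit that was run, with adjusted p of at most 0.0201.

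GSTF4 (AT1G02950), the phi class member, passed in none of the 5 mutants. Its signals ranged from 24.6 to 31.8 in Col-0, 29.1 to 38.6 in stn7-1, 27.3 to 29.2 in psad1-1, 24.4 to 37.2 in psad1-1 stn7-1, 12.7 to 17.6 in Wassilewskija, 9.19 to 21.5 in psae1-3 and 14.5 to 19.7 in psae1-3 stn7-1. Every mutant group overlapped its wild type. Its largest change was 0.23 log2 in stn7-1 (SE 0.28, adjusted p = 0.623), with a 95% confidence interval of −0.37 to 0.82. In psae1-3 stn7-1 the interval was −0.55 to 0.91 log2, so these arrays leave the size of a change in GSTF4 poorly resolved.

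**Figure D2:**
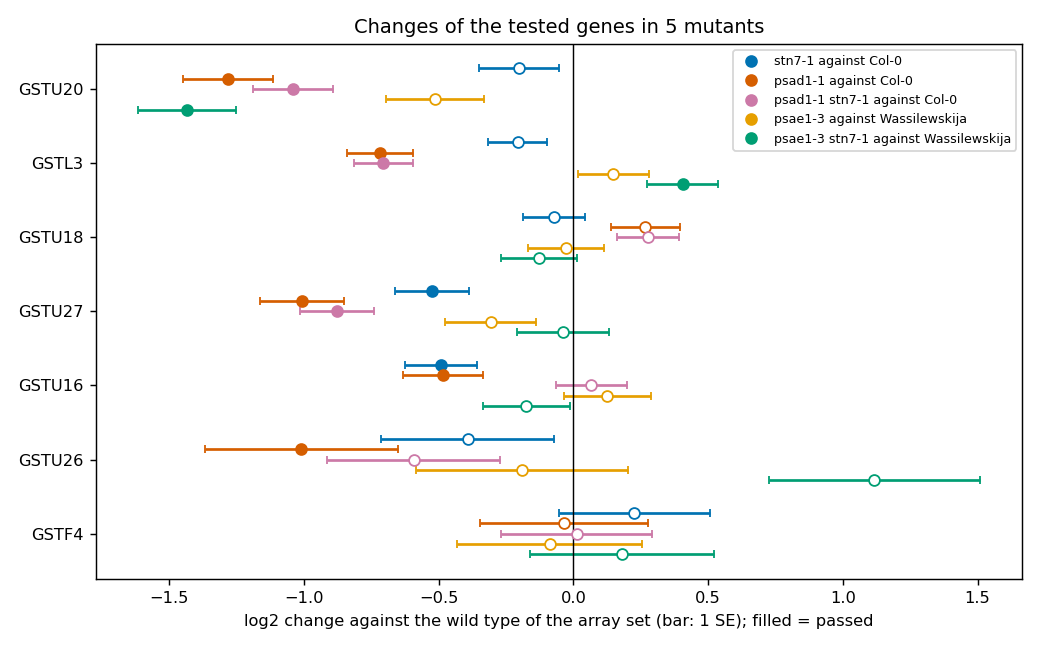
Log2 change (horizontal axis) of the 7 tested genes in 5 mutants, each against the wild type of its array set. Points are estimates, bars 1 SE, and filled points passed the test, as GSTU20 did in psad1-1 (−1.28), psad1-1 stn7-1 (−1.04) and psae1-3 stn7-1 (−1.43).

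Counted over the 7 tested genes, 5 were lower and 0 higher in psad1-1 (GSTU20, GSTU27, GSTL3, GSTU26 and GSTU16), where 40.5% of all tested probe sets were called, 21.1% as lower and 19.3% as higher. The median change of the 7 was −0.72 log2, against −0.022 log2 over all tested probe sets. In psad1-1 stn7-1 GSTU20, GSTU27 and GSTL3 were lower and 0 were higher, with 40.8% of probe sets called (21.6% lower, 19.2% higher), and the medians were −0.59 and −0.021 log2. In stn7-1 GSTU27 and GSTU16 were lower and 0 higher, with 18.9% called (9.17% lower, 9.74% higher), and the medians were −0.21 and −0.034 log2. The mutants of the first set share the Col-0 arrays, so these values are not independent of one another.

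In the second set fewer of the genes passed. In psae1-3 0 of 7 passed with limma, 1 (GSTU20) had an unadjusted p under 0.05, and 12.3% of all tested probe sets were called (6.9% lower, 5.41% higher), with medians of −0.09 and −0.109 log2. In psae1-3 stn7-1 GSTU20 was lower and GSTL3 higher, with 16.2% of probe sets called (8.79% lower, 7.43% higher), and the medians were −0.04 and −0.052 log2. These mutants were measured on 2 arrays each, like psad1-1.

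For 4 of the genes the change that came with stn7-1 differed between genetic backgrounds by a test of the difference. In psad1-1 stn7-1 against psad1-1, 0 of 7 passed with limma and 1 (GSTU16) had an unadjusted p under 0.05, beside 2.09% of all tested probe sets called (0.857% lower, 1.23% higher). In psae1-3 stn7-1 against psae1-3, GSTU20 was lower and GSTU26 higher, beside 12.3% called (4.81% lower, 7.48% higher). The interaction of psad1-1 with stn7-1 passed for GSTU16 alone of the 7 (11.8% of probe sets called, 5.8% higher and 6% lower), and for GSTU27 it was 0.66 log2 (SE 0.208, adjusted p = 0.0508). The change with stn7-1 differed between the psae1-3 and the wild-type background for GSTU27 (0.80 log2, SE 0.219, adjusted p = 0.0154), GSTU26 (1.70 log2, SE 0.507, adjusted p = 0.0235) and GSTU20, beside 22.9% of probe sets called (12.2% higher, 10.7% lower). The GSTU26 difference was 0.83 log2 without psae1-3 replicate B (adjusted p = 0.125) and 2.57 log2 without psae1-3 replicate A. It did not pass without stn7-1 replicate C (adjusted p = 0.0517) or psae1-3 stn7-1 replicate A (0.1), after quantile normalization (0.0527) or with no filter (0.0677). The GSTU27 difference did not pass with scaling to the array median (adjusted p = 0.0979) or without psae1-3 replicate A (0.0521) or psae1-3 stn7-1 replicate A (0.0516). Against stn7-1, psad1-1 stn7-1 had GSTU20 and GSTL3 lower and GSTU16 and GSTU18 higher, beside 28% called (15% lower, 13% higher).

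**Figure D3:**
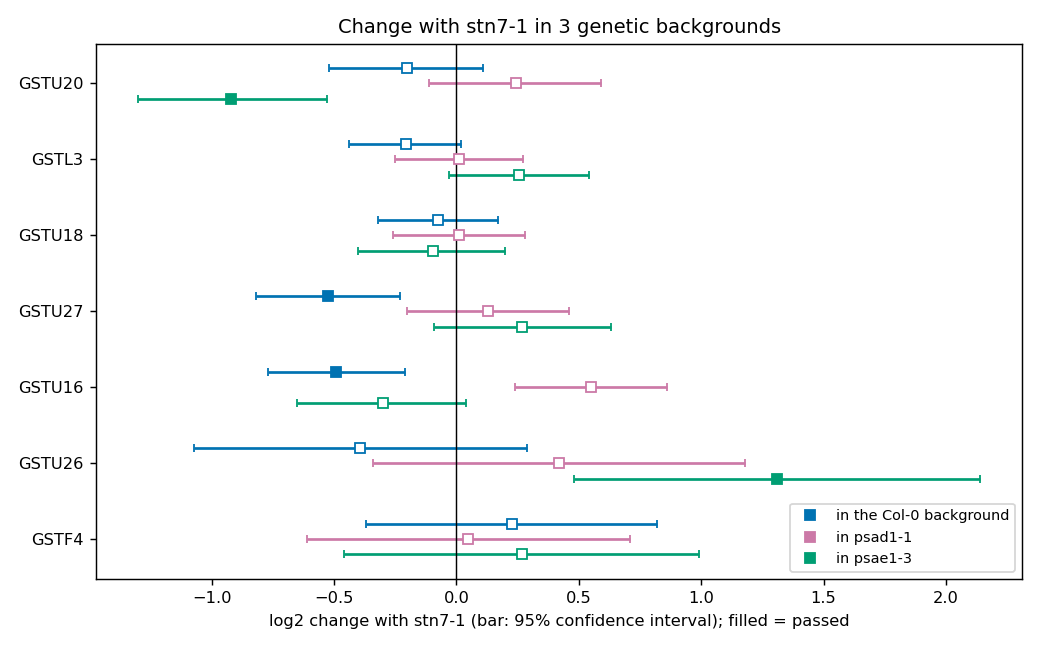
Log2 change that came with stn7-1 (horizontal axis) for the 7 tested genes in the Col-0, psad1-1 and psae1-3 backgrounds. Points are estimates, bars 95% confidence intervals, and filled points passed the test. In the psae1-3 background GSTU20 (−0.92) and GSTU26 (1.31) passed, and in Col-0 GSTU27 (−0.53) and GSTU16 (−0.49) did.

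The psad1-1 and psae1-3 changes, each against its own wild type, differed for GSTL3, GSTU20 and GSTU27, beside 19.4% of all tested probe sets (8.4% lower, 11% higher). For GSTU20 the difference was −0.77 log2 (SE 0.246, adjusted p = 0.0382) and for GSTU27 −0.70 log2 (SE 0.23, adjusted p = 0.0421). The GSTU20 call was lost under 3 of 11 alternative settings and in 5 of 9 fits with 1 array left out (adjusted p up to 0.184). The GSTU27 call was lost under 4 of 11 settings and in 7 of 9 such fits (adjusted p up to 0.156). The array set and the mutation cannot be told apart in them, because each mutant and its wild type were measured in 1 set.

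Between the wild types GSTU27 was higher in Wassilewskija than in Col-0 (0.72 log2, adjusted p = 0.00138), and GSTU26 (−1.21 log2, adjusted p = 0.0112), GSTF4 (−0.95 log2, adjusted p = 0.0199) and GSTU18 (−0.37 log2, adjusted p = 0.0279) were lower, beside 47% of all tested probe sets called (24.6% higher, 22.4% lower). Here accession cannot be told apart from array set. The GSTU27 call held in every fit that was run, and the other 3 were lost in some, GSTU18 without Wassilewskija replicate B (adjusted p = 0.457). GSTU20 stood at 0.26 log2 (adjusted p = 0.217), at 0.44 log2 with scaling to the array median (adjusted p = 0.042) and at −0.02 log2 after quantile normalization.

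The 6 dim genes ranged from 7.08 to 38.2 (GSTU23, AT1G78320), 4.56 to 46.7 (GSTU28, AT1G53680), 4.04 to 17.5 (GSTU22, AT1G78340), 0.286 to 20.1 (GSTU15, AT1G59670), 0.798 to 11.7 (GSTU25, AT1G17180) and 0.462 to 10.8 (GSTU21, AT1G78360). They were above the background on 16, 16, 12, 6, 3 and 3 of 17 arrays. GSTU25 is known for the conversion of the explosive TNT. A signal under the background is no measure of a level, so the last 3 are largely unmeasured here.

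GSTU23, the cluster neighbour of GSTU22, read 38.2, 27.5 and 31.9 in Col-0, 17, 22.0 and 24.3 in stn7-1, 22.8 and 17.3 in psad1-1 and 19.8, 14.2 and 14.2 in psad1-1 stn7-1. All 8 mutant arrays lay below Col-0. With no filter on low signals, psad1-1 stn7-1 was lower than Col-0 (−1.02 log2, SE 0.251, adjusted p = 0.0103). GSTU23 did not pass in stn7-1 (−0.63 log2, adjusted p = 0.157) or psad1-1 (−0.70 log2, adjusted p = 0.1) in that fit. Nor did it pass in psae1-3 (−0.86 log2, adjusted p = 0.122) or psae1-3 stn7-1 (−0.08 log2, adjusted p = 0.932). It was lower in Wassilewskija than in Col-0 in that fit (−1.07 log2, adjusted p = 0.0123). The stn7-1 difference with psae1-3 passed too (1.40 log2, adjusted p = 0.0387), though psae1-3 replicate B read 7.08, below background. Both of these comparisons cross the array sets. GSTU28 read 21.3, 38.4 and 46.7 in psad1-1 stn7-1 and between 12.3 and 18.9 on the other 8 arrays of the first set, and did not pass with no filter (1.09 log2, adjusted p = 0.127). GSTU15 read 17.8 and 20.1 in Wassilewskija and 0.286 and 3.78, below background, in psae1-3 stn7-1. With the background standing in for both psae1-3 stn7-1 arrays, the Wassilewskija mean lay at least 2.32-fold higher, a bound that carries no test. The limma fit with no filter gave −2.96 log2 (adjusted p = 0.0221). That value rests on the signals below background, so the size of the change is not measured.

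**Figure D4:**
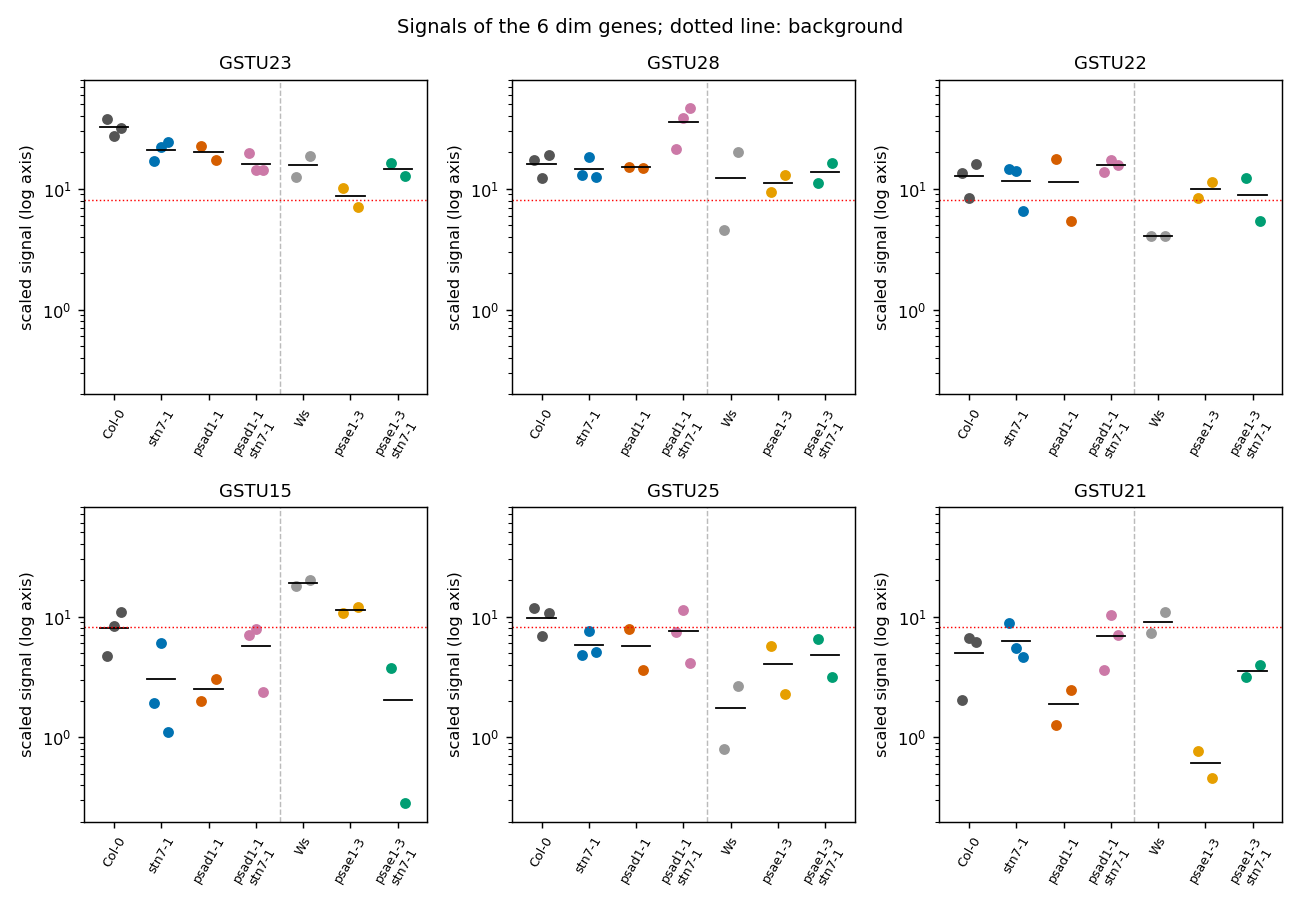
Scaled signals (log axis) of the 6 genes that fell below the filter, for 7 genotypes. Points are arrays, horizontal lines genotype means, the red dotted line the background of 8.15, and the grey dashed line separates the 2 array sets (Ws is Wassilewskija). In GSTU28 the 3 arrays of psad1-1 stn7-1 (21.3 to 46.7) lay above the other first-set arrays.

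The tested genes did not share 1 pattern over the arrays. After the mean of each array set was taken off, Pearson's r with GSTU20 over the 17 arrays was 0.59 for GSTU27, 0.45 for GSTL3, 0.14 for GSTU16, 0.09 for GSTF4, 0 for GSTU26 and −0.47 for GSTU18. These coefficients describe arrays that share genotypes and scaling, and they carry no test.

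Among the 7353 other tested probe sets with 1 gene each, BCAT4 (AT3G19710) was most like GSTU20 by this measure (r = 0.983 over 17 arrays). BCAT4 is the methionine aminotransferase at the first step of methionine chain elongation, which leads to aliphatic glucosinolates. It was followed by AT1G21440 (0.942), AT5G16990 (0.935), AT3G53990 (0.925) and AT1G65900 (0.924). The BCAT4 signal was 1588 ± 262 in Col-0, 1149 ± 194 in stn7-1, 438 ± 69.7 in psad1-1, 530 ± 94.5 in psad1-1 stn7-1, 2396 ± 443 in Wassilewskija, 1387 ± 101 in psae1-3 and 676 ± 4.34 in psae1-3 stn7-1. The 3 lowest genotypes were the same as for GSTU20. BCAT4 was picked for its likeness to GSTU20 on these same arrays, so this match follows in part from the choice. BCAT4 changed by −1.86 log2 in psad1-1 (adjusted p = 9.43e-07), −1.59 log2 in psad1-1 stn7-1 (adjusted p = 1.22e-06), −0.78 log2 in psae1-3 (adjusted p = 0.0173) and −1.81 log2 in psae1-3 stn7-1 (adjusted p = 1.05e-05), and stood at −0.47 log2 in stn7-1 (adjusted p = 0.052).

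**Figure D5:**
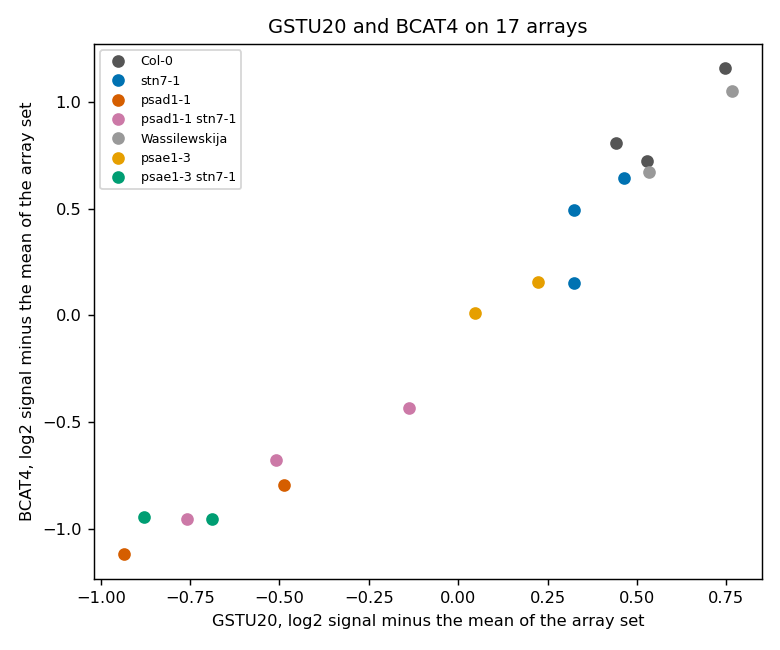
Log2 signal of BCAT4 (vertical axis) against that of GSTU20 (horizontal axis) on 17 arrays, each less the mean of its array set. Points are arrays coloured by genotype, and they follow 1 rising line (r = 0.983) from psad1-1 and psae1-3 stn7-1 at the low end to the wild types at the high end.

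Of 44 symbols listed for glucosinolate synthesis, regulation and transport, 6 had a probe set of their own and 5 were tested. In the 5 mutants 0 of 5 passed as higher. Against their wild types 4 of 5 were lower in psad1-1, 5 of 5 in psad1-1 stn7-1, 2 of 5 in psae1-3, 2 of 5 in psae1-3 stn7-1 and 0 of 5 in stn7-1, with median changes of −1.03, −1.14, −0.50, −0.48 and −0.47 log2. Over all tested probe sets 21.1%, 21.6%, 6.9%, 8.79% and 9.17% were called lower in the same mutants. UGT74B1, which adds glucose to the glucosinolate core, read 227 ± 7.6 in psad1-1 against 606 ± 89.1 in Col-0 (−1.41 log2, adjusted p = 4.76e-06) and changed by −0.60 log2 in psae1-3 stn7-1 (adjusted p = 0.0285). The glucosinolate transporter gene GTR1 changed by −1.03 log2 in psad1-1 (adjusted p = 0.00447) and AOP1, a dioxygenase gene of the side-chain modifying family, by −0.88 log2 (adjusted p = 0.000364). GTR2, a related transporter gene named here after its values were seen, stood at −0.23 log2 in psad1-1 (adjusted p = 0.389) and 0.62 log2 in psae1-3 stn7-1 (adjusted p = 0.0628). It was higher in psae1-3 stn7-1 than in psae1-3 (1.06 log2, adjusted p = 0.00379), where GSTU20 was lower. BCAT4 stands in this list too, so its likeness to GSTU20 and the list share data.

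Of 38 symbols for glutathione synthesis, turnover and recycling only the glutathione reductase genes GR (AT3G54660, the organellar enzyme) and GR1 (AT3G24170) were tested. Both were higher in psad1-1, where GR read 817 ± 20.3 against 654 ± 18.3 in Col-0 (0.32 log2, adjusted p = 0.0388) and GR1 807 ± 38.6 against 619 ± 43.0 (0.38 log2, adjusted p = 0.0142). Both were higher in psad1-1 stn7-1 as well, by 0.38 log2 (adjusted p = 0.00805) and 0.28 log2 (adjusted p = 0.0381), and neither passed in the other 3 mutants. Among all tested probe sets 19.3% were called higher in psad1-1 and 19.2% in psad1-1 stn7-1. In these lines GSTU20, GSTU27 and GSTL3 were lower, and a link to the reductase genes was not tested. Of the genes listed for the response to foreign and reactive compounds 3 were tested, 2 quinone reductase genes named NQR and AER, the alkenal reductase gene. Against the wild types the only call among them was NQR (AT1G49670), lower in psad1-1 stn7-1 (−0.51 log2, adjusted p = 0.00122), as were 21.6% of all tested probe sets. It was also lower there than in psad1-1 (−0.49 log2, adjusted p = 0.0486) and stn7-1 (−0.42 log2, adjusted p = 0.00828), and AER was lower than in stn7-1 (−0.48 log2, adjusted p = 0.0447). Of all tested probe sets 0.857% were called lower than in psad1-1 and 15% lower than in stn7-1. The list for late flavonoid and anthocyanin synthesis had 4 tested genes, UGT78D2, UGT78D1, DFR and UF3GT. Anthocyanins need a glutathione S-transferase for transport. Of the 4 genes 4 were lower in stn7-1, 2 in psad1-1, 1 in psad1-1 stn7-1 (with 1, UGT78D2, higher), 4 in psae1-3 and 2 in psae1-3 stn7-1. The shares of all tested probe sets called lower in these mutants were 9.17%, 21.1%, 21.6%, 6.9% and 8.79%, and 19.2% were called higher in psad1-1 stn7-1.

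Some markers of other cell types differed between the genotypes. The summed signal of 4 root marker genes was 299 to 355 in Col-0, 276 to 364 in stn7-1, 431 to 601 in psad1-1 and 684 to 810 in psad1-1 stn7-1, and 252 to 284 on the 6 arrays of the second set. The higher sums came from PYK10, a beta-glucosidase gene, at 19.2 to 37.1 in Col-0, 208 to 359 in psad1-1 and 442 to 576 in psad1-1 stn7-1. Without PYK10 the other 3 root genes summed to 280 to 318 in Col-0, 247 to 304 in stn7-1, 223 to 242 in psad1-1 and 233 to 255 in psad1-1 stn7-1. The sums with psad1-1 lay below Col-0, but that of psad1-1 stn7-1 overlapped stn7-1. Most of the sum was SCN1, at 199 to 288 over the 17 arrays. EXPA18 read 4.97 to 28.3, and the root hair gene EXPA7 was above background on 8 of 17 arrays. The vascular gene SWEET11 read 665 to 814 in Col-0, 738 to 992 in stn7-1, 1099 to 1186 in psad1-1 and 860 to 1083 in psad1-1 stn7-1. In the second set it read 787 to 997 in Wassilewskija, 600 to 844 in psae1-3 and 1167 to 1214 in psae1-3 stn7-1. The 3 epidermis and guard cell genes summed to 48.8 to 61.9 in Col-0, 64.5 to 73.8 in stn7-1, 61.5 to 72.7 in psad1-1 and 65.7 to 71.1 in psad1-1 stn7-1. The 8 mesophyll genes summed to 27476 to 29808 in Col-0, 27911 to 30413 in stn7-1, 22698 to 27807 in psad1-1 and 26074 to 26366 in psad1-1 stn7-1. In the second set they summed to 33714 to 33790 in Wassilewskija, 34314 to 38176 in psae1-3 and 33325 to 33887 in psae1-3 stn7-1. The part of these markers in the lower GSTU20, GSTU27 and GSTL3 signals was not tested.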

How the data were processed

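Biotin-labelled RNA from 17 pools (5 µg of total RNA each) was hybridized to 17 one-colour ATH1 arrays. The deposited values are signal intensities on a linear scale that the authors made with GCOS and MAS5, per the submitters' processing notes, with versions not given in the sources used here. The deposited 2% trimmed mean was 100 in the first set and 500 in the second, so each array was brought to 100. The 10th percentile (1.57) served as a floor before log2 was taken. Without 64 control probe sets and the 40% with the lowest mean, 13648 of 22810 remained. A linear model with a mean for each genotype used all arrays (limma 3.58.1, R 4.3.3, moderated variances with a trend, 10 residual and 6.04 prior degrees of freedom). Tests were two-sided, over 12 comparisons, and a call means a Benjamini-Hochberg adjusted p of at most 0.05 over all tested probe sets. SE is that of the log2 change, and SD that of scaled signals. The background of 8.15 is the 95th percentile of 315 values of spike-in control probe sets without a target. The Trpn controls gave values on all arrays, but the Dap, Lys, Phe and Thr controls on the first set only. The second set thus gave fewer of the values, and the same background was used for both sets. The number of arrays limits the precision.

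The annotation lists 14016 probe sets, 13513 with 1 gene and 503 with several. All 13 members matched RefSeq (TAIR10.1) by gene ID, used for names and gene order, and classes follow the symbols. The members and gene lists were chosen with earlier results of these data known. Named genes were all members, at most 4 tested genes of each list with the smallest adjusted p in psad1-1, PSAE-1 and the 5 genes most like GSTU20. List symbols that in the annotation belong to another gene were left out. The fit was tested on simulated data. Alternatives were quantile normalization, scaling to the array median, log2(signal + 16), other filters or floors, 1 array set alone, other moderation, a replicate block and leaving out each array. A floor at the background was added after seeing the data.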

Additional observations from a re-analysis of the deposited data

Results flagged for a closer look

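For 5 of the 7 tested genes a difference between changes passed a test of the difference itself. Some differences were between genetic backgrounds and some between psad1-1 and psae1-3. Of all tested probe sets 11.8% were called for the interaction of psad1-1 with stn7-1. The shares were 22.9% for the stn7-1 difference with psae1-3 and 19.4% for the psad1-1 change less the psae1-3 change. GSTU16 had an interaction of psad1-1 with stn7-1 of 1.04 log2 (adjusted p = 0.00513). The change with stn7-1 in psae1-3, less that in Col-0, was 0.80 log2 for GSTU27 (adjusted p = 0.0154), −0.72 log2 for GSTU20 (adjusted p = 0.037) and 1.70 log2 for GSTU26 (adjusted p = 0.0235). The GSTU26 value was 0.83 log2 without psae1-3 replicate B (adjusted p = 0.125) and 2.57 log2 without psae1-3 replicate A. The psad1-1 change less the psae1-3 change was −0.87 log2 for GSTL3 (adjusted p = 0.00326), −0.70 log2 for GSTU27 (adjusted p = 0.0421) and −0.77 log2 for GSTU20 (adjusted p = 0.0382). The GSTU16 and GSTL3 differences passed in every fit that was run, and the other 5 were lost in at least 1. The GSTU16 interaction lies within 1 array set, and the other 6 differences set changes in one array set against changes in the other. No genotype had the 4 arrays needed to look for a single array far from the rest.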

How the results depend on the processing

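Of 29 calls of single genes 14 held under all alternatives and left-out arrays and 15 were lost under at least 1, of 55 results without a call 15 gained one under at least 1, and 0 calls reversed. The causes were not tested. The number of genes called changed by over 1.5 times as follows. Scaling to the array median gave 1 in stn7-1 (2 here) and 1 in psae1-3 stn7-1 against psae1-3 (2 here), and it moved the median of all probe sets from −0.022 to 0.119 log2 in psad1-1 and from −0.109 to 0.064 log2 in psae1-3. Quantile normalization gave 1 in psae1-3 stn7-1 and 1 in psae1-3 stn7-1 against psae1-3 (2 each here). With no filter 1 of 13 passed in psae1-3 (GSTU21, whose psae1-3 arrays lie below background), 1 in psae1-3 stn7-1 against psae1-3, 1 for the difference of the psad1-1 and psae1-3 changes (3 here) and 7 between the wild types (4 here). With the lowest 60% dropped, which leaves 5 genes, 1 passed in psae1-3 stn7-1 against psae1-3 and 2 between the wild types. Fitted alone, the first set gave 5 in psad1-1 stn7-1 (3 here, GSTU18 and GSTU26 added) and 1 in psad1-1 stn7-1 against psad1-1, and the second set 1 in psae1-3, psae1-3 stn7-1 and psae1-3 stn7-1 against psae1-3. With no variance trend 1 passed in psae1-3 stn7-1 and 1 for the difference of the psad1-1 and psae1-3 changes. The interaction had 2 genes called (1 here) after quantile normalization, with a floor at the 25th percentile, log2(signal + 16), the lowest 60% dropped, robust moderation, and the added floor at the background.

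With 1 array left out the counts were 0 to 2 in stn7-1, 3 to 5 in psad1-1, 0 to 1 in psae1-3, 1 to 2 in psae1-3 stn7-1, 1 to 2 in psae1-3 stn7-1 against psae1-3, 1 to 2 for the interaction, 0 to 4 for the stn7-1 difference with psae1-3, 1 to 3 for the difference of the psad1-1 and psae1-3 changes and 1 to 5 between the wild types. The arrays that moved a mutant count this much were Col-0 B and C and stn7-1 B in stn7-1, Col-0 C and psad1-1 B in psad1-1, and psae1-3 A in psae1-3. In psae1-3 stn7-1 they were both Wassilewskija arrays and psae1-3 stn7-1 A. Whether the replicate letters pair the samples was not settled, and the main fit had no replicate block. Residuals of arrays with the same letter correlated at −0.22 to 0.27 (21 pairs), and those with other letters at −0.37 to 0.34 (36 pairs). In genotypes with 2 arrays the residuals mirror each other, so these values cannot exclude pairing. With the letter as a replicate block the count was 1 for the difference of the psad1-1 and psae1-3 changes and 1 between the wild types. Every probe set counted singly gave the same counts, as each gene has 1. With 2 or 3 arrays a genotype, changes of the dimmer genes GSTU26 and GSTF4 were poorly resolved, and 6 of 13 genes were not tested.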
